A study of Mus musculus with 80 samples.

Results

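Retinoic acid is the signalling form of vitamin A, and the 8 genes described here carry its signal through the cell. Stra6 encodes the membrane receptor through which retinol is taken up, Crabp1 and Crabp2 encode the proteins that bind retinoic acid in the cytoplasm, Dhrs3 encodes a reductase that turns retinal back into retinol, Cyp26a1 encodes a cytochrome P450 that breaks retinoic acid down, and Rara, Rarb and Rarg encode the nuclear receptors. They were picked by symbol as known genes of the pathway, with earlier results of these data already seen but by no threshold on a measured value, from a table of 25965 genes measured in 12 RNA-seq libraries, and all 8 were found in it. Inside the nucleus, a retinoic acid receptor sits with an RXR partner on DNA that carries a repeated half-site, and recruits co-repressors without ligand and co-activators with it. Rarb, Cyp26a1, Dhrs3, Stra6 and Crabp2 are themselves known as genes that retinoic acid switches on, and in mouse embryonic stem cells (ESCs) added retinoic acid is a standard way to start differentiation.

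All libraries used came from wild-type ESCs of 1 line, E14. Cells grown with LIF in DMEM with fetal calf serum (called serum here) were moved to 2i, a serum-free N2B27 medium with LIF, the MEK inhibitor PD0325901 and the GSK3 inhibitor CHIR99021. RNA was taken before the move and 6, 24 and 72 h after it, with 3 replicates each, which the study describes as biological replicates. A second readout, not used in the choice of genes, was ChIP-seq of histone H3 dimethylated at lysine 9 (H3K9me2), a mark of silent chromatin, in serum, at 24 h in 2i and in long-term 2i (LT2i), with 2 bound libraries and 1 input each. The labels do not say whether replicates came from separate cultures, so p-values measure the spread between these samples.

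The deposited RNA values are log2 expression values, corrected by the authors for gene length and library depth, so levels can be compared between genes. The reads behind them were recovered as whole numbers for 19806 of 19814 genes with reads and summed to 10952796 to 16194725 per library. Differences were tested with limma over all 12 libraries for the 12743 genes with a mean of -1 or more, and genes with an adjusted p (Benjamini-Hochberg) under 0.05 are named as called. Of the 8 genes, 6 passed that filter. Rarb and Stra6 did not (means of -1.24 and -2.79), and their tests come from the same fit with a lower filter, a mean of -3 or more (15664 genes), added after the values were seen.

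The genes lie on 7 chromosomes (GRCm38, as the files give them). Stra6 spans chr9:58063788-58153996 and Crabp1 chr9:54764748-54773110, both on the plus strand. Crabp2 spans chr3:87948666-87953376, Dhrs3 chr4:144892827-144928209, Cyp26a1 chr19:37697808-37701528 and Rara chr11:98927818-98974942, all on the plus strand. Rarb spans chr14:16430842-16575472 and Rarg chr15:102234938-102257517, both on the minus strand. The Stra6 row overlaps Ccdc33 on the other strand and Gm16131. Ccdc33 had at most 18 reads and Gm16131 had 0 reads in each library, and since no use of strand in counting is stated, reads shared with Stra6 cannot be told apart.

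Receptor binding sites can be looked for in the DNA before each gene. RefSeq promoter windows (GRCm38.p6, 300 bases around each annotated start, most of them upstream) were given for 7 of the 8 genes, 16 windows in all, and not for Crabp2. They were searched on both strands for direct repeats of a half-site. The half-site could read AGGTCA, the consensus, or be one of its variants. These were AGTTCA, as in both elements shown here, then GGGTCA and lastly GGTTCA. With a spacer of 5 bases, the classical arrangement for RAR and RXR pairs, the repeat was in 32 of 32851 windows (0.0974%), among them those of Rarb and Cyp26a1. The allowed variants hold every half-site of these 2 elements, so the choice of variants let the search find them. The share of windows is a description, with no test of enrichment. Spacers of 1 and 2 bases were found in 0.222% and 0.268% of windows and in 0 of the 16. The sequences below are the 120 bases that end at the base before the annotated start, 5′ to 3′ on the strand of the gene, with the repeat in capitals. They are shown because these 2 genes share the repeat and moved differently in 2i. The window of Rarb is chr14:16575477-16575596 on the minus strand and that of Cyp26a1 is chr19:37697688-37697807 on the plus strand.
Rarb: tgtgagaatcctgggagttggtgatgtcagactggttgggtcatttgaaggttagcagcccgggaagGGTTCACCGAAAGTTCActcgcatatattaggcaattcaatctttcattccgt
Cyp26a1: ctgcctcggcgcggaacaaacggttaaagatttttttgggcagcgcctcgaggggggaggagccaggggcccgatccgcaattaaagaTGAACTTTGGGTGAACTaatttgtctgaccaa

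In Cyp26a1 the repeat reads on the opposite strand. Written in the reading direction of the repeat, with the half-sites in capitals, the elements share their second half-site and differ in the first.
Rarb repeat: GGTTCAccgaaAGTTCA
Cyp26a1 repeat: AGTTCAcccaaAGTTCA

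The Rarb element lies 36 bases before the annotated start (chr14:16575513-16575529) and the Cyp26a1 element 15 bases before it (chr19:37697776-37697792). A match of letters is a description and does not show that a receptor was bound there in these cells.

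Levels in serum were spread widely. Rarg was highest (log2 value 5.86 ± 0.10, SD, n = 3), followed by Rara (3.78 ± 0.13), Crabp1 (2.87 ± 0.15), Crabp2 (1.93 ± 0.26), Cyp26a1 (-0.35 ± 0.21), Dhrs3 (-0.91 ± 0.33), Rarb (-2.69 ± 0.06) and Stra6 (-3.92 ± 0.94). No 2 neighbours in this order overlapped between libraries. By 72 h the order had become Crabp1, Rarg, Rara, Crabp2, Dhrs3, Rarb, Cyp26a1 and Stra6, and the ranges of Rarb and Cyp26a1 overlapped.

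**Figure D1:**
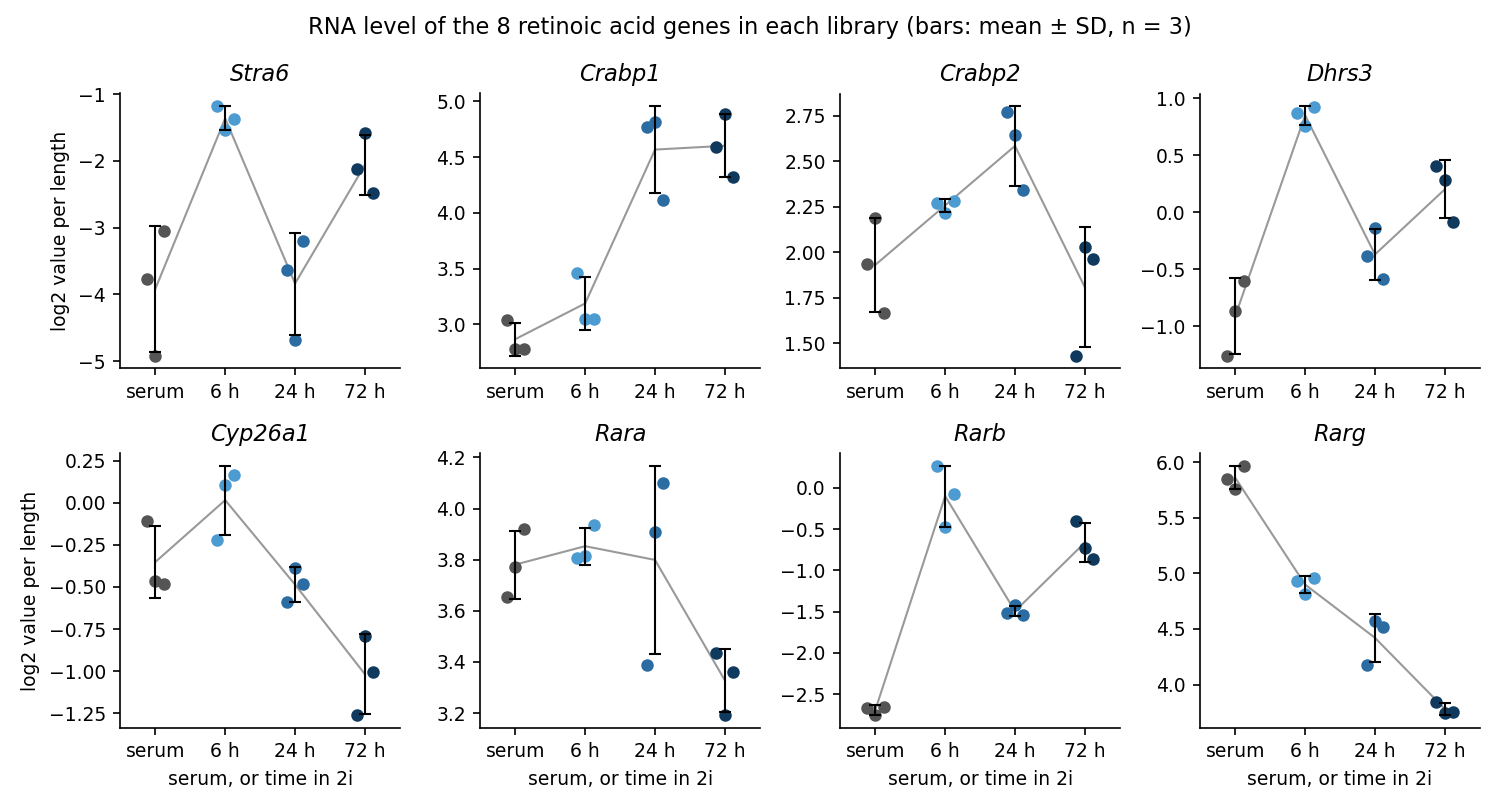
RNA level (log2 value per length, y axis) of the 8 genes (x axis: serum, then 6, 24 and 72 h of 2i). Points are libraries and bars the mean ± SD (n = 3). Rarb, Stra6 and Dhrs3 have their highest mean at 6 h (6 h and 72 h libraries of Rarb overlap), Crabp1 rises by 24 h and Rarg falls at each step; the y axes differ between genes.

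The genes did not move together. At 6 h Rarb, Stra6 and Dhrs3 rose, Rarg fell, and Crabp1, Crabp2, Cyp26a1 and Rara did not pass the test. Of the 6 genes that passed the filter 2 were called at 6 h, 1 higher and 1 lower, where 15% of all tested genes were called (8.87% higher and 6.13% lower). With the lower filter it was 4 of 8, 3 higher and 1 lower, against 14.5% of all genes (8.94% and 5.52%).

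By 24 h most of the transcriptome differed from serum, so a call there says less. With 61.7% of all tested genes called (33.5% higher and 28.2% lower), 4 of the 6 were called, 3 higher and 1 lower. With the lower filter 5 of 8 were, 4 higher and 1 lower, against 56.8% (31.2% and 25.5%). At 72 h 5 of the 6 were called, 2 higher and 3 lower, against 50.7% (24.9% and 25.8%), and 7 of 8 with the lower filter, 4 higher and 3 lower, against 47.8% (23.9% in each direction). Between 24 and 72 h 3 of 6 were called, against 30.9%, and 5 of 8 with the lower filter, against 28.7%. Between 6 and 24 h 4 of 6 were called, against 57.9%, and 6 of 8, against 52.1%. Against serum the 6 genes had median changes of 0.32, 0.28 and -0.29 at 6, 24 and 72 h. Those of all genes tested were 0.01, 0.10 and -0.01. With the lower filter the 8 genes had medians of 0.35, 0.31 and 0.49 and all genes 0.04, 0.09 and -0.04, so the sign at 72 h turned with the inclusion of Rarb and Stra6. Stra6 passed the lower filter only through the 6 h and 72 h libraries, in which it was high, so counts and medians over all 8 are a description. In bulk RNA, fewer cells of a type and less RNA per cell cannot be told apart.

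Stra6, the gene for retinol uptake, was at the edge of detection in serum, with 8, 3 and 16 reads in replicates 1 to 3 (log2 values -3.78, -4.92 and -3.06). At 6 h it had 44, 37 and 43 reads (-1.18, -1.53 and -1.38), at 24 h 8, 4 and 14 reads (-3.63, -4.69 and -3.20), and at 72 h 31, 36 and 20 reads (-2.11, -1.58 and -2.49). The 6 h and 72 h libraries all lay above every serum and 24 h library, while serum and 24 h overlapped. Stra6 was 5.88-fold higher at 6 h (log2 change 2.56 ± 0.49, SE, limma adjusted p = 0.00487). It was back at 0.08 ± 0.49 from serum by 24 h (limma adjusted p = 0.926) and 3.62-fold higher by 72 h (1.86 ± 0.49, limma adjusted p = 0.00898). The fall from 6 h to 24 h (-2.48, limma adjusted p = 0.00186) and the later rise to 72 h (1.78, limma adjusted p = 0.02) also passed. With no filter at all, which no group of libraries could have decided, limma adjusted p was 0.00661 at 6 h, 0.0121 at 72 h, 0.00276 for the fall and 0.0271 for the later rise. The later rise was not called without 24 h replicate 2, 72 h replicate 1 or 72 h replicate 2 (limma adjusted p = 0.0533 to 0.0824).

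The cellular binding proteins moved on different schedules. Crabp1 had log2 values of 3.04, 2.78 and 2.78 in serum and 3.46, 3.05 and 3.05 at 6 h. At 24 h these were 4.77, 4.81 and 4.12 and at 72 h 4.59, 4.89 and 4.33, from 307 to 444 reads per library against 86 to 126 in serum. Every 24 h and 72 h library lay above every serum and 6 h library. Crabp1 rose 3.25-fold at 24 h (1.70 ± 0.21, limma adjusted p = 4.29e-05) and stood 3.32-fold above serum at 72 h (1.73 ± 0.21, limma adjusted p = 3.64e-05). Its change at 6 h was 0.32 ± 0.21 (limma adjusted p = 0.388), and the step from 6 to 24 h was itself called (1.38, limma adjusted p = 0.000289).

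Crabp2, which hands retinoic acid to the receptors in the nucleus, had a brief and smaller rise. Its log2 values were 1.93, 2.19 and 1.67 in serum, 2.27, 2.22 and 2.28 at 6 h, 2.77, 2.64 and 2.34 at 24 h, and 1.43, 2.03 and 1.96 at 72 h. The 24 h libraries lay above all others, and serum and 72 h overlapped. It was 1.57-fold higher at 24 h (0.65 ± 0.18, limma adjusted p = 0.00878) and then fell by 0.78 on the log2 scale to 72 h (limma adjusted p = 0.00822), where the difference from serum was -0.12 ± 0.18 (limma adjusted p = 0.602). With only the 24 h and 72 h libraries in the fit, the fall had a limma adjusted p of 0.0539. The level of Crabp1 over that of Crabp2 within a library, on the log2 scale, was 0.94 ± 0.30 (SD, n = 3) in serum and 2.79 ± 0.40 at 72 h (exact two-sided permutation p = 0.1, the smallest that 3 against 3 allows).

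Of the enzymes, Dhrs3 was higher than in serum at all 3 times and Cyp26a1 was lower at 72 h. Dhrs3 had log2 values of -1.26, -0.87 and -0.60 in serum and 0.87, 0.76 and 0.92 at 6 h, from 23 to 44 and from 91 to 106 reads. At 24 h the values were -0.39, -0.14 and -0.59 and at 72 h 0.40, 0.28 and -0.09. The 6 h libraries were the highest, the 72 h libraries came next, and the 24 h libraries lay just above serum. The rise was 3.38-fold at 6 h (1.76 ± 0.20, limma adjusted p = 0.000133) and 2.16-fold at 72 h (1.11 ± 0.20, limma adjusted p = 0.000848), with a fall of 1.22 between 6 and 24 h (limma adjusted p = 0.000564). At 24 h the change of 0.54 ± 0.20 had a limma adjusted p of 0.0373. That call was lost in the fit on recovered reads (limma voom adjusted p = 0.071), with no filter on low genes (limma adjusted p = 0.0542) and with quantile normalisation (0.151). It was also lost with log2 of the value plus 1 and with only the serum and 24 h libraries in the fit. Leaving out any 1 of 7 libraries (serum 1 or 2, any at 6 h, 24 h 1 or 2) lost it too (limma adjusted p of 0.0501 to 0.152).

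Cyp26a1, whose product clears retinoic acid and which carries the repeat shown above, was low throughout, with 17 to 38 reads per library. Its log2 values were -0.10, -0.47 and -0.48 in serum, -0.22, 0.10 and 0.16 at 6 h, -0.59, -0.38 and -0.48 at 24 h, and -1.26, -0.79 and -1.0 at 72 h. The 72 h libraries lay below all others, while serum overlapped with 6 h and with 24 h. The change at 6 h was 0.37 ± 0.19 (limma adjusted p = 0.254). At 72 h Cyp26a1 was 1.59-fold lower than in serum (-0.67 ± 0.19, limma adjusted p = 0.0118), and this call was lost without serum replicate 1 or without 72 h replicate 1 (limma adjusted p of 0.0511 to 0.0557). The step from 24 to 72 h was -0.53 ± 0.19 (limma adjusted p = 0.0515). That step was called with median centring (limma adjusted p = 0.04996), with no variance trend (0.0285), with a replicate block (0.0431) and without 72 h replicate 2 (0.0315), and it was not called with limma voom (0.0851), quantile normalisation (0.0953) or the span trend removed (-0.32, 0.243). A fall of 0.50 between 6 and 24 h (limma adjusted p = 0.0392) was lost without 6 h replicate 2 or 3, without any 1 of the 24 h libraries, and with limma voom (adjusted p = 0.0531).

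Among the receptors, Rarg fell, Rarb rose and Rara fell late. Rarg, the dominant receptor transcript of serum ESCs, had log2 values of 5.85, 5.76 and 5.97 in serum, 4.93, 4.81 and 4.96 at 6 h, 4.18, 4.57 and 4.52 at 24 h, and 3.85, 3.75 and 3.75 at 72 h. No group overlapped with another. Its level was 1.94-fold below serum after 6 h (-0.96 ± 0.12, limma adjusted p = 0.000186), 2.71-fold below after 24 h (-1.44 ± 0.12, limma adjusted p = 2.48e-06) and 4.22-fold below after 72 h (-2.08 ± 0.12, limma adjusted p = 1.04e-07). The later steps were also called (-0.48 from 6 to 24 h and -0.64 from 24 to 72 h, limma adjusted p = 0.00494 and 0.00203).

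Rarb, the receptor gene best known as a target of retinoic acid, went the other way. It had 9, 7 and 11 reads in serum (log2 values -2.66, -2.76 and -2.66) and 62, 40 and 55 at 6 h (0.26, -0.48 and -0.08). At 24 h it had 18, 20 and 23 reads (-1.52, -1.42 and -1.54) and at 72 h 53, 34 and 32 (-0.40, -0.72 and -0.87). Every 2i library lay above every serum library, and the 24 h libraries lay below those of 6 h and 72 h. After 6 h Rarb stood 6.04-fold above serum (2.59 ± 0.21, limma adjusted p = 1.45e-05). After 24 h this was 2.30-fold (1.20 ± 0.21, limma adjusted p = 0.000668) and after 72 h 4.08-fold (2.03 ± 0.21, limma adjusted p = 1.58e-05). With limma voom on the recovered reads these 3 changes were called as well. The fall from 6 to 24 h was -1.40 (limma adjusted p = 0.000387) and the rise from 24 to 72 h 0.83 (limma adjusted p = 0.0135). The latter was lost without 72 h replicate 1 (limma adjusted p = 0.0629), with only the 24 h and 72 h libraries in the fit (0.0502) and when the trend of change with the genomic span of genes was removed from each library (0.57, limma adjusted p = 0.0794).

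Rara did not pass the test within the first day. Its log2 values were 3.65, 3.77 and 3.92 in serum, 3.81, 3.81 and 3.94 at 6 h, 3.39, 3.91 and 4.10 at 24 h, and 3.43, 3.19 and 3.36 at 72 h. The groups overlapped up to 24 h, and the 72 h libraries lay below those of serum and 6 h. After 72 h it stood 1.37-fold below serum, after changes of 0.07 ± 0.16 and 0.02 ± 0.16 at the earlier times (limma adjusted p = 0.883 and 0.931). This difference (-0.45 ± 0.16, limma adjusted p = 0.0356) was no longer called with quantile normalisation (0.0716), with no filter (0.0593) or without any 1 of 6 libraries (serum 2 or 3, 6 h 2, or any at 72 h), where adjusted p was 0.0502 to 0.119. Its fall from 24 to 72 h (-0.47, limma adjusted p = 0.0463) was lost on leaving out any single library other than 24 h replicate 1 (adjusted p of 0.0553 to 0.142). That fall was also lost with no filter, no variance trend, quantile normalisation or only the 24 h and 72 h libraries in the fit.

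The make-up of receptor transcripts shifted with these changes. Of the summed linear level of Rara, Rarb and Rarg in a library, Rarg made up 80.7% ± 1.1 (SD, n = 3) before the move to 2i, then 65.9% ± 0.63 at 6 h, 60.0% ± 3.0 at 24 h and 56.3% ± 1.4 at 72 h. Rara made up 19.1% ± 1.1 in serum and 41.1% ± 1.5 at 72 h. Rarb, in spite of its 6.04-fold rise, stayed a minor part, with 0.215% ± 0.011 before the move and 2.10% ± 0.48, 1.00% ± 0.19 and 2.60% ± 0.33 at 6, 24 and 72 h. In all 9 comparisons of a receptor's share with serum the groups did not overlap, and the exact two-sided permutation p was 0.1, the smallest that 3 against 3 allows.

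**Figure D2:**
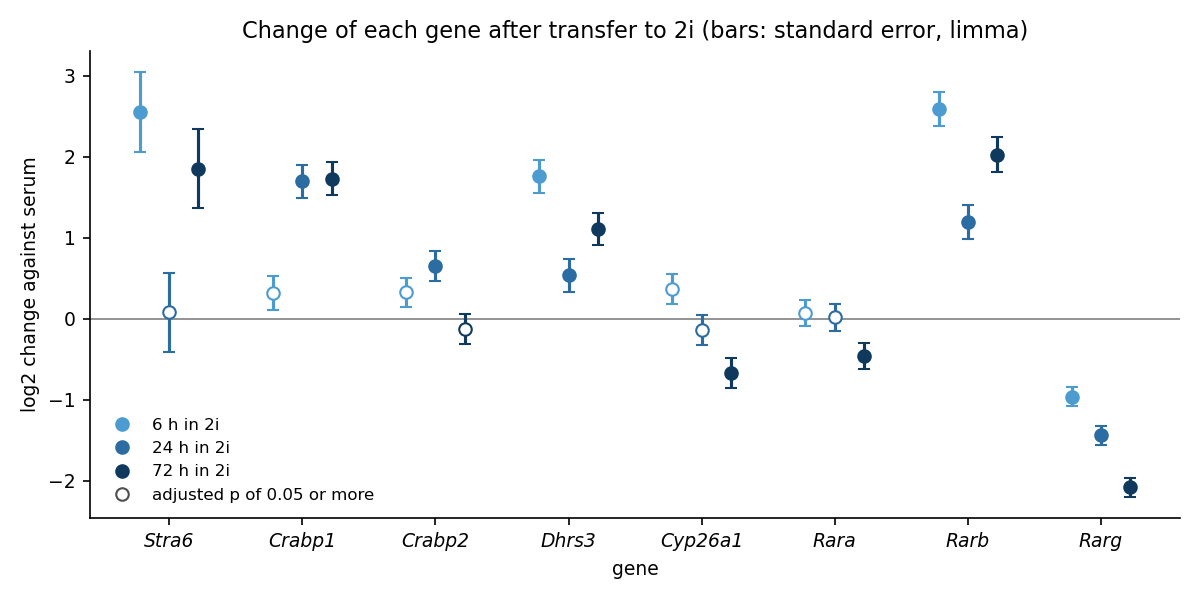
Log2 change against serum (y axis) of the 8 genes (x axis) at 6, 24 and 72 h in 2i, with limma standard errors. Filled points have an adjusted p under 0.05 and open points do not; Rarb is above 0 and Rarg below 0 at each time.

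A rise at 6 h, a dip at 24 h and a second rise at 72 h, with all 3 steps called, was seen for Rarb and Stra6. Among the 15664 genes of the lower filter 172 (1.1%) had this pattern, a share given as a description, since Stra6 and genes like it passed that filter through the libraries in which they were high. Dhrs3 had the same order of levels, but its last step missed the threshold (0.57 ± 0.20, limma adjusted p = 0.0526) and lay on either side of it elsewhere. It passed with limma voom (0.58, adjusted p = 0.041), quantile normalisation (0.63, adjusted p = 0.0441), no variance trend (limma adjusted p = 0.04), log2 of the value plus 1 (limma adjusted p = 0.0363) and a replicate block (limma adjusted p = 0.0489). It did not pass with the span trend removed (0.48, limma adjusted p = 0.104) or with only the 24 h and 72 h libraries in the fit (limma adjusted p = 0.139), and leaving out 1 library gave limma adjusted p of 0.038 to 0.174. The contrast of 24 h with 6 h was added after the values were seen.

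Other genes of the pathway were read from lists that hold none of the 8. For the fits with a mean of -1 or more and of -3 or more, shares of all genes called in each direction are those given above. Of 16 genes of retinoid transport and metabolism 9 were tested. At 6 h 3 were higher and 0 lower, at 24 h 8 and 0, and at 72 h 6 and 1. Their median changes were 0.54, 0.91 and 0.81. Fabp5, a fatty acid binding protein that also carries retinoic acid, reached 1.81 ± 0.30 at 72 h (limma adjusted p = 0.000431). Rbp4, the retinol carrier that STRA6 recognises, was 1.92 ± 0.24 higher at 24 h (limma adjusted p = 4.71e-05) and 1.19 ± 0.24 higher at 72 h (limma adjusted p = 0.0014). Its serum level was -1.24 ± 0.29 (SD, n = 3), so it passed the filter through 2i libraries, and with no filter limma adjusted p was 9.17e-05 and 0.0021. Rdh10, the dehydrogenase that makes retinal from retinol, was the exception that fell. It was 0.90 ± 0.16 higher at 6 h (limma adjusted p = 0.00224), 0.01 ± 0.16 from serum at 24 h (limma adjusted p = 0.96) and fell by 1.30 below serum at 72 h (limma adjusted p = 3.83e-05).

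Of the genes that work with the receptors, 9 fell at 24 h. Of 15 partners, co-activators and co-repressors 14 were tested, and limma called 0 of them at 6 h (3 were at an unadjusted p under 0.05, and limma voom called 0). At 24 h 0 were higher and 9 lower with a median of -0.83, and at 72 h 1 was higher and 5 lower with a median of -0.42. With the trend on genomic span removed the split was 2 higher and 1 lower at 6 h, 2 and 7 at 24 h and 3 and 6 at 72 h, with medians of -0.43 at 24 h and -0.30 at 72 h. Of all 12743 genes that fit called 1304 higher and 952 lower at 6 h. At 24 h these were 4338 and 3568, and at 72 h 3409 and 3480. The acetyltransferase genes Crebbp and Ep300 were lowest at 24 h (-2.56 ± 0.39 and -2.21 ± 0.31, limma adjusted p = 0.000226 and 0.000125) and stood at -1.16 and -1.20 at 72 h (limma adjusted p = 0.0284 and 0.0075). Rxra, the main partner of the receptors, was 0.69 ± 0.16 higher at 72 h (limma adjusted p = 0.00304).

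Among genes known to answer retinoic acid, more were higher than lower. Of 16 in the list 9 were tested. At 6 h 7 were higher and 0 lower, at 24 h 6 and 1 (7 and 0 with the span trend removed), and at 72 h 8 and 0, with median changes of 1.43, 1.13 and 1.92. With the lower filter 13 were tested, with 9 higher and 0 lower at 6 h, 7 and 3 at 24 h and 11 and 1 at 72 h, and medians of 0.94, 1.07 and 1.29. With limma voom on the reads of 13 genes the counts were 9 and 1, 6 and 3, and 10 and 2. Of all 14489 genes limma voom called 1346 higher and 939 lower at 6 h. At 24 h these were 4758 and 4094, and at 72 h 3705 and 3845. The medians of the 13 genes were then 0.92, 0.025 and 0.89. These 13 hold Hoxb1 in place of Rarres1, and the parts of the fit and of this swap in the medians were not tested. Cdx1, a homeobox gene that answers both retinoic acid and Wnt signals, stood 3.57 ± 0.34 above serum after 6 h (limma adjusted p = 3.07e-05) and 4.89 ± 0.34 above it after 72 h (limma adjusted p = 5.11e-07). Stra8, a gene of germ cells entering meiosis, rose by 1.43 ± 0.14, 2.90 ± 0.14 and 4.71 ± 0.14 at 6, 24 and 72 h (limma adjusted p = 3.12e-05, 6.00e-08 and 1.12e-09). The summed linear level of the 16 genes was 19.0 to 20.8 in the serum libraries. In 2i it was 42.4 to 45.5 after 6 h, 51.5 to 71.0 after 24 h and 123 to 155 after 72 h.

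**Figure D3:**
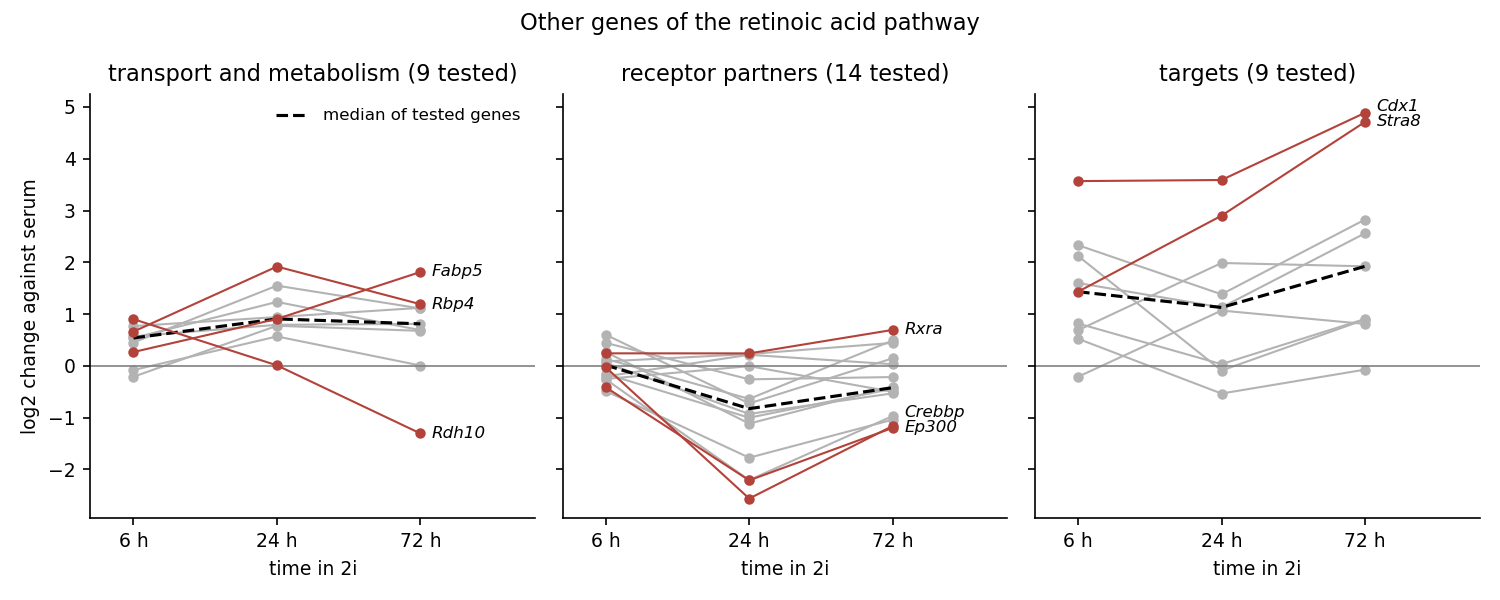
Log2 change against serum (y axis) at 6, 24 and 72 h in 2i (x axis) of the tested genes of retinoid metabolism (9), receptor partners (14) and targets (9), 1 line each. Dashed lines are list medians and red lines the named genes; 9 of the 14 partners are lower than serum at 24 h, and Cdx1 and Stra8 are above serum at each time.

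Cell type markers were checked beside these changes. Of all tested genes 8.87% were higher and 6.13% lower at 6 h. At 24 h the shares were 33.5% and 28.2%, and at 72 h 24.9% and 25.8%. All 10 ESC markers were tested, and their summed linear level was 1608 to 1851 in serum and 2093 to 3441 at 72 h, with 4 higher and 3 lower at 24 h and 5 and 3 at 72 h. With quantile normalisation the balance at 24 h turned, to 2 higher and 5 lower, and at 72 h it was 5 and 4. Of all 12743 genes that fit called 4031 higher and 3930 lower at 24 h, and 3305 and 3416 at 72 h. Among the ESC markers Nanog was 1.72 higher at 72 h (limma adjusted p = 9.79e-06) and Utf1 was lower by -3.44 (limma adjusted p = 3.38e-09). The neural list (7 genes in the table) summed to 50.0 to 52.8 in serum, 94.6 to 97.3 at 6 h and 32.6 to 36.8 at 72 h. Neurog2 had no reads in serum, at 24 h or at 72 h. At 6 h 1 of the 3 tested genes of the neural list was higher (Tubb3, 1.11, limma adjusted p = 7.44e-05), 1 was lower (Sox1, -0.79, limma adjusted p = 0.0151) and Nes was at -0.63 (limma adjusted p = 0.0938). At 24 h the neural list summed to 62.2 to 78.2, with 2 of its 3 tested genes higher and 1 lower. At 72 h 0 of its 3 tested genes were higher and 2 lower (Nes -0.87 and Tubb3 -0.51, limma adjusted p = 0.00732 and 0.00376). The mesoderm list summed to 4.05 to 4.97 in serum and 6.22 to 9.10 at 72 h, with 1 of 3 tested genes higher and 2 lower at 24 h and 1 and 1 at 72 h. The latter were Gsc, from 1 to 4 reads in serum and 61 to 133 at 72 h, which passed the filter only through 2i libraries and was 5.28 higher (limma adjusted p = 1.25e-05, and 3.47e-05 with no filter), and T lower (-0.79, limma adjusted p = 0.00594). The primitive endoderm list summed to 13.8 to 15.7 in serum and 13.1 to 19.9 at 72 h, with 1 of 4 tested genes higher and 1 lower at both 24 and 72 h. The latter were Gata4 0.92 higher and Dab2 lower by -1.08 (limma adjusted p = 0.000371 and 0.000643), and Afp had no reads. The trophectoderm list summed to 105 to 115 in serum, 94.2 to 153 at 24 h and 57.8 to 97.2 at 72 h, with 0 of 5 tested higher and 3 lower at both 24 h (median -2.03) and 72 h, the latter including Hand1 -1.65 and Gata3 -1.12 (limma adjusted p = 6.09e-05 and 0.00328). The fibroblast list summed to 7.64 to 9.77 in serum and 4.52 to 4.96 at 72 h, with 0 of 3 tested higher, 1 lower at 24 h and 3 lower at 72 h, the latter including Col1a1 -0.96 and Col1a2 -0.58 (limma adjusted p = 0.00303 and 0.0302), and Lum had no reads. The part of other cell types in the changes of the 8 genes was not tested.

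Across the 12 libraries, which share 4 groups, the tested genes most like each of the 6 were found by Pearson's r, as a description. Rarg was followed most closely by Fzd7 (r = 0.995), Grk6 (0.995) and Zfp423 (0.994), and Crabp1 by Coro1b (0.991), Fbxo6 (0.991) and Ralb (0.99). Crabp2 was closest to 1600002H07Rik (0.965), Ppm1n (0.946) and Hist1h2bc (0.945), and Rara to Sox12 (0.959), Abtb2 (0.954) and Creb3l1 (0.949). For Dhrs3 they were Grsf1 (0.947), Mlst8 (0.945) and Mfsd7c (0.935), and for Cyp26a1 they were Tars2 (0.944), Rhobtb3 (0.938) and Zfp185 (0.917).

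H3K9me2 was read over the 2-kb bins from 2 kb before the start to the end of each gene, as log2 of bound over input of the same medium. The bound libraries held 14396552 to 19279328 reads in 1026637 bins. Values are scaled to the library total, so a change of the whole genome would not be seen, and the single input per medium adds an error that the p-values leave out. The study itself reports lower total H3K9me2 in 2i by western blot and immunofluorescence. Gains and losses given here are therefore relative to the library total and not absolute. Of the 8 genes 5 passed the filter of 5 or more scaled reads per bin. In serum their levels spread from 0.39 and 0.33 over Rarb and 0.06 and -0.14 over Dhrs3 to -2.15 and -2.02 over Cyp26a1. The strongly transcribed Rarg and Rara, below the filter, stood at -3.34 to -3.26 and -3.73 to -3.24.

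At 24 h in 2i 0 of the 5 genes were called by limma, as for all 18106 tested genes (0% called, with 3636 genes at an unadjusted p under 0.05). None of the 5 was among those. The changes ran from -0.33 ± 0.14 for Cyp26a1 (SE, limma adjusted p = 0.262) to -0.01 ± 0.08 for Rarb (limma adjusted p = 0.931). In bins within 2 kb of the start limma called 294 of 14420 genes (2.04%). Of the 3 members tested there (Crabp1, Stra6 and Cyp26a1) 0 were called, and Cyp26a1 passed that filter only through LT2i. Stra6 came nearest with -0.86 ± 0.30 (limma adjusted p = 0.15). Its start lies inside the row of Ccdc33, so these bins belong to Ccdc33 as well.

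**Figure D4:**
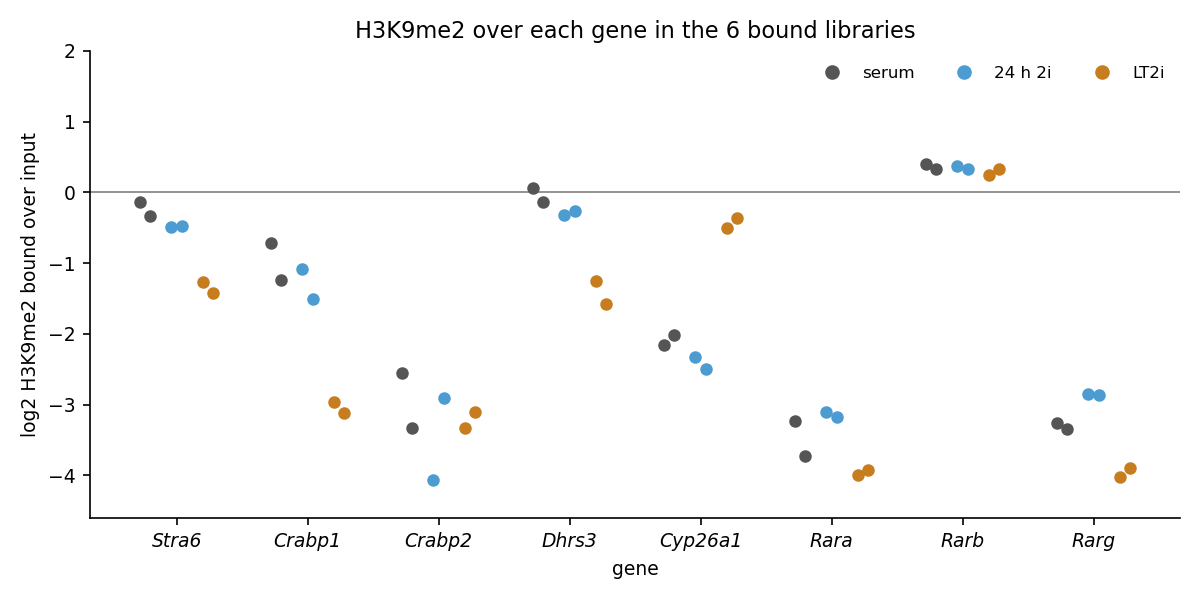
H3K9me2 over each of the 8 genes (x axis) as log2 of bound over input (y axis) in 2 libraries each of serum, 24 h 2i and LT2i. Each point is a library; in LT2i Cyp26a1 is higher than in serum while Stra6, Crabp1 and Dhrs3 are lower.

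In LT2i 4 of the 5 were called, with 60.7% of all tested genes. Cyp26a1 was higher, as were 9.05% of all genes, and Crabp1, Dhrs3 and Stra6 were lower, as were 51.6%. The bound over input values of Cyp26a1 were -2.15 and -2.02 in serum, -2.32 and -2.50 at 24 h and -0.51 and -0.36 in LT2i, from 18 and 19, 13 and 11, and 42 and 41 bound reads over 4 bins. The gain of 1.65 ± 0.14 (SE, limma adjusted p = 0.000994) stood above 99.9% of the genes tested, of which the median change was -0.48. On bound values alone it was 1.33 ± 0.14 (limma adjusted p = 0.00115), and with no filter the adjusted p of the gain was 0.00117. Within 2 kb of the start the values were -2.38 and -2.62 in serum and -0.75 and -0.69 in LT2i, given with no test because those bins passed the filter only through LT2i. Along the locus the gain was largest in the bins over the gene, and bins before the start went both ways. The bins centred at -4.807, -2.807 and -0.807 kb had mean log2 bound over input of -3.99, -2.55 and -2.75 in serum. In LT2i these bins had -2.73, -3.78 and -1.91. In the bins centred 1.193, 3.193 and 5.193 kb past the start the mean log2 bound over input was -2.48, -1.41 and -2.13 in serum and 0.34, 0.25 and -0.99 in LT2i, while in the bin 7.193 kb past the start it was -1.59 and -4.21.

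Crabp1 showed the reverse. Its values were -0.72 and -1.24 in serum, -1.09 and -1.50 at 24 h and -2.97 and -3.12 in LT2i, from 82 and 55 bound reads in serum to 19 and 13 in LT2i over 6 bins. The change in LT2i was -2.06 ± 0.23 (limma adjusted p = 0.00152), and 1.7% of tested genes had a lower one. Crabp1 passed the filter through the serum and 24 h libraries, the LT2i libraries having 4.06 and 3.67 scaled reads per bin, and with no filter limma adjusted p was 0.00168. Within 2 kb of the start the values were -1.09 and -1.87 in serum and -2.15 and -3.08 in LT2i. They are given with no test, since those bins passed the filter mainly through the serum and 24 h libraries. Those libraries had 7.63 to 13.5 scaled reads per bin there, and LT2i had 6.42 and 3.37. Dhrs3 went from 0.06 and -0.14 to -1.26 and -1.58 (-1.38 ± 0.14, limma adjusted p = 0.00125). Stra6 went from -0.13 and -0.34 to -1.26 and -1.43 (-1.11 ± 0.12, limma adjusted p = 0.00129), over bins of which a part also lies in Ccdc33. Over the 62 bins of Rarb the values were 0.39 and 0.33 in serum and 0.24 and 0.32 in LT2i, a change of -0.08 ± 0.08 (limma adjusted p = 0.4). Within 2 kb of its start the values were -1.39 and -1.33 in serum, -2.60 and -1.76 at 24 h and -3.07 and -3.12 in LT2i, from 17 and 17, 7 and 13, and 6 and 5 bound reads. The start bins of Rarb thus lay lower in both LT2i libraries than in serum, but they were under the filter and were not tested. Rarg, Rara and Crabp2 had 6 to 60 bound reads in a serum or LT2i library. Tested without the filter, where 56.1% of genes were called, Rarg changed by -0.66 ± 0.19 (limma adjusted p = 0.029), Rara by -0.48 ± 0.24 (limma adjusted p = 0.135) and Crabp2 by -0.27 ± 0.45 (limma adjusted p = 0.629). RNA of LT2i was not analysed here, so these changes stand beside no RNA value of the same medium.

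**Figure D5:**
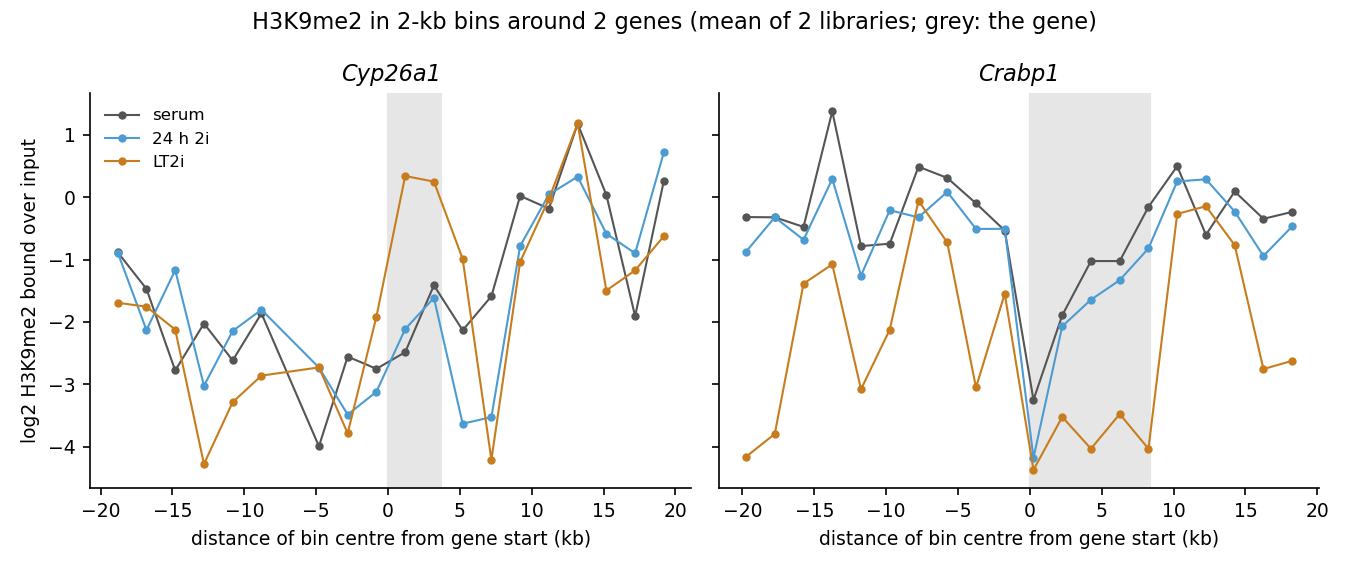
Mean log2 H3K9me2 bound over input (y axis) in 2-kb bins by distance from the gene start (x axis, kb) around Cyp26a1 and Crabp1, in serum, 24 h 2i and LT2i (2 libraries each). Grey marks the gene; LT2i lies above serum over Cyp26a1 and below it over Crabp1.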

How the data were processed

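For RNA-seq (TruSeq RNA v2, 50 bp single-end reads) the log2 values of genes as deposited allow for length and depth and share a 75th percentile of 2.51, with 0.9 reads standing in for none. The submitters' processing notes name Trim Galore 0.3.5, TopHat2 2.0.11, Bowtie2, Bismark 0.12.3, GRCm38 and NCBIM37. The H3K9me2 libraries were deposited as log2 values of 2-kb bins after scaling by total reads, and no input value lay below 3, so bins appear filtered on input. Undoing each library's floor and each gene's length gave reads that were whole multiples (99.96% of genes with reads; lengths whole within 0.1 base for 99.98%), which fix depth and counting error.

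Values were tested with limma 3.58.1 (R 4.3.3, lmFit and eBayes with trend, all 12 RNA or all 6 bound libraries), checked on simulated data, with Benjamini-Hochberg adjustment over all genes tested; tables were made in Python 3.11.15. limma voom was run on recovered reads of genes with a mean of 10 or more. The 8 genes, the lists and the tests were chosen with earlier results of these data known. Beside the 8 genes, named genes are the 3 most alike per tested member, up to 2 rises and 2 falls at 72 h per pathway list, and the 2 largest changes per marker list. Sox1, Hoxb1 and Rarres1 were named after their values were seen. Bisulfite libraries use NCBIM37 and are not analysed here.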

Additional observations from a re-analysis of the deposited data

Results flagged for a closer look

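For the 8 genes, the effect of 2i against serum was compared between neighbouring times by the contrast of the times. Of these differences 11 passed (limma adjusted p under 0.05). Rarb and Stra6 were read with the lower filter and the other 6 with a mean of -1 or more. Between 6 and 24 h 52.1% of all genes were called with the lower filter and 57.9% with the other. Between 24 and 72 h these shares were 28.7% and 30.9%. From 6 to 24 h the log2 effect changed by -2.48 for Stra6, -1.40 for Rarb, -1.22 for Dhrs3, -0.50 for Cyp26a1, -0.48 for Rarg and 1.38 for Crabp1. From 24 to 72 h it changed by -0.78 for Crabp2, -0.64 for Rarg, -0.47 for Rara, 1.78 for Stra6 and 0.83 for Rarb. The effects share the serum libraries, and the contrast of 24 h with 6 h was added after the values were seen. Groups of 3 or 2 libraries are too small for a check of single outlying libraries.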

How the results depend on the processing

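The fit with a mean of -1 or more tested 6 of the 8 genes. Of these 2 were called at 6 h (15% of all tested genes), 4 at 24 h (61.7%) and 5 at 72 h (50.7%). Between 24 and 72 h 3 were called (30.9%) and between 6 and 24 h 4 (57.9%). Fits with a mean of -3 or more, with no filter and with limma voom tested Rarb and Stra6 as well. Each called 4 at 6 h, and over all genes 2266 of 15664, 2223 of 25965 and 2285 of 14489. With a mean of 1 or more, which left out Dhrs3 and Cyp26a1, 1 was called at 6 h (1253 of 9773 genes). With a log2 change of 1 or more it was 1 (624 of 12743). That fold limit gave 2 at 24 h (3368 of 12743 genes) and 3 at 72 h (2559). It gave 0 between 24 and 72 h (1179) and 2 between 6 and 24 h (2702). A mean of 1 or more gave 3 at 72 h (4876 of 9773 genes) and 2 between 6 and 24 h (5910). Between 24 and 72 h the count was 1 with only those groups (1559 of 12743 genes). It was 5 with a mean of -3 or more (4491 of 15664) and 6 with limma voom (4795 of 14489). Leaving out 1 library gave 3 to 5 of the 6 at 72 h, with 5487 to 7390 of all genes called.

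Signs turned only for changes that were not called. With the span trend removed Rara between 6 and 24 h was 0.14. Over the start bins Crabp1 H3K9me2 at 24 h was 0.062, and on bound values alone Rarb H3K9me2 at 24 h was 0.055. Leaving out 1 library, Stra6 at 24 h ran from -0.42 to 0.51 (-0.025 and -0.24 without 24 h replicate 1 or 3), Rara at 24 h from -0.13 to 0.22 and between 6 and 24 h from -0.20 to 0.15, Crabp2 at 72 h from -0.25 to 0.066, Crabp1 between 24 and 72 h from -0.19 to 0.17, and Rarb H3K9me2 at 24 h from -0.044 to 0.015. The cause was not tested.

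The labels do not say that replicate numbers pair the samples, and not every same-numbered pair had a correlation of deviations over 0.1 (15 of 18 did, from -0.25 up). The median was 0.29, against -0.21 for different numbers. Deviations within a group sum to 0, so these medians depend on each other. Of 12 libraries 7 correlated best with their own number, which was not set against chance. Pairs of replicate 3 ran from 0.39 to 0.81, the highest between 24 h and 72 h. The 72 h replicate 2 had -0.85 with 24 h replicate 3 but 0.74 with 24 h replicate 1, a different number too. These values are at most a hint of pairing, plainest for replicate 3, from the data and not from the design. The main fit has no term for replicate, so its p-values leave this out. With the replicate block 5 of the 6 genes tested were called between 24 and 72 h (Dhrs3 and Cyp26a1 in addition). Over all 12743 genes the calls there also rose, from 3936 to 5902. The counts of 2, 4, 5 and 4 elsewhere stayed. Over all genes the block gave 2571 at 6 h, 8859 at 24 h, 7579 at 72 h and 8505 between 6 and 24 h. With the block H3K9me2 gave 0 at 24 h and 4 in LT2i, where 0 and 10988 of all 18106 genes were called.

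Over all genes, 1911 were called at 6 h, against 3595 with only those groups, 624 with the fold limit and 1207 to 1240 without serum replicate 1, 6 h replicate 1 or 6 h replicate 2, and 1253 with a mean of 1 or more. Between 24 and 72 h 3936 were called, against 1559 with only those groups, 6792 without 24 h replicate 3 and 2414 without 72 h replicate 1. The fold limit left 3368 of 7860 at 24 h, 2559 of 6463 at 72 h, 1179 between 24 and 72 h and 2702 of 7378 between 6 and 24 h. Few reads limit Stra6, Rarb and Cyp26a1.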
